A study of Rattus norvegicus with 6 samples.

Results

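MiR-22 is represented on the Agilent Rat miRNA array by the mature RNAs of both arms of its precursor, rno-miR-22-3p and rno-miR-22-5p. These 2 miRNAs were chosen by name from the 758 miRNAs of the array. The choice made no use of their signals, but earlier results of these data were known when it was made. Signals were compared between 3 rats of the model group and 3 rats of the control group, all male Sprague–Dawley rats, with 1 rat on each array. The model group had acute myocardial infarction (AMI) made by tying off the left anterior descending coronary artery, and its RNA came from myocardium of the infarct marginal zone 4 weeks after surgery. The control group had a sham operation, in which the thread was passed and not tied, and its RNA came from myocardium at the same time. Only the model samples are labelled as marginal zone, so that the ligation and the region sampled cannot be told apart. The study asked which miRNAs differ in the fibrotic myocardium after infarction, and drew the 3 rats of each array group at random from a larger group. Ages are not given.

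MiR-22 is made by cutting a hairpin RNA, and the 3p arm is the strand that mostly enters the silencing complex, while the 5p arm is usually broken down. The 3p strand is known to be abundant in heart and skeletal muscle. In mouse studies it promotes hypertrophic growth of cardiomyocytes, and its described targets include Sirt1, a deacetylase, Hdac4, a histone deacetylase that restrains growth genes, and Purb, a repressor of contractile protein genes.

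The mature sequences are shown because the seed, bases 2 to 8 from the 5′ end, sets which messenger RNAs a miRNA can bind. The sequences are those of RefSeq on assembly GRCr8, where both arms lie on the plus strand of chromosome 10, at 60805349 to 60805370 for the 5p arm and at 60805387 to 60805408 for the 3p arm. Capitals mark the seed.

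rno-miR-22-3p: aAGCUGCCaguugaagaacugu

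rno-miR-22-5p: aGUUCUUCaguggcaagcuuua

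Each arm has 22 bases, and the seeds of the arms differ from each other. Among the 693 mature rat miRNA names in the same source, each seed occurred only in its own arm. No seed family among them could thus be read beside either arm. The hairpin Mir22 spans 60805331 to 60805425, and in the next sequence capitals mark the arms, the 5p arm first.

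Mir22 hairpin: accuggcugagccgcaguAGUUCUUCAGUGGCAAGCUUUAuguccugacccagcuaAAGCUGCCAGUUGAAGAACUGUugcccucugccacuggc

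The arms are separated by 16 bases, and the predicted fold of the hairpin has 19 base pairs between them and a free energy of -43.0 kcal/mol. In gene order, Mir22 lies between Mir6326 and Tlcd2. The miRNA of the neighbouring gene, miR-6326, is also on the array and was detected on 0 of the 6 arrays.

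The array carries 12128 spots for miRNAs. A probe was counted as detected when its signal was over 3 times its error, and 206 to 218 miRNAs were detected on the control arrays and 221 or 222 on the model arrays. No spot was saturated. The 6 arrays shared 1 slide and were scanned together, with model arrays 2 and 3 in the second row and the others in the first. The signal of a miRNA is the sum over its detected probes. For comparison, each array was set relative to its own 75th percentile, taken over the 198 miRNAs that all 6 arrays detected, and taken to log2, so that a scaled log2 signal of 0 is the brightness of that percentile.

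MiR-22-3p was among the brightest miRNAs of the rat myocardium in both groups. Its signal before scaling was 2625, 3379 and 2271 in the control rats and 2829, 2511 and 2677 in the model rats. Control array 2 was the brightest and control array 3 the dimmest, and the 3 model arrays lay between them. It was the 4th, 4th and 6th brightest detected miRNA on the control arrays and the 6th, 7th and 6th on the model arrays. Brightness also depends on how well each probe binds, so that these are orders of signal and not of molecule number.

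MiR-22-5p was dim and still detected on all 6 arrays. Its signal before scaling was 12.4, 18.9 and 12.2 in the control rats and 14.7, 11.7 and 13.7 in the model rats. Its probe signal was 5.49 to 7.01 times its own error, against the 3 times that detection asks for. It was in place 133, 122 and 134 on the control arrays and in place 135, 150 and 135 on the model arrays.

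**Figure D1:**
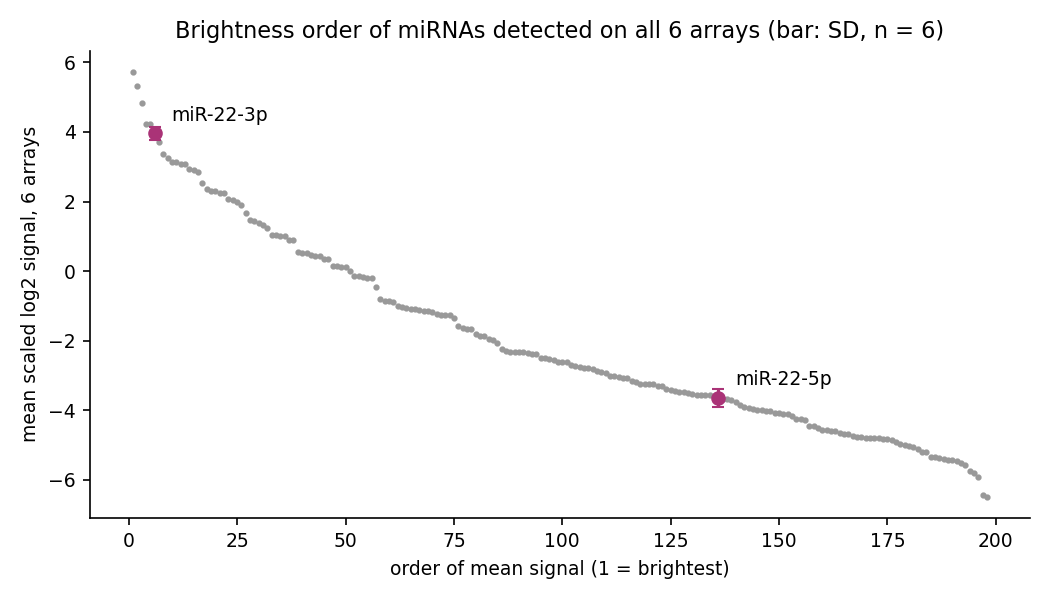
Mean scaled log2 signal over the 6 arrays (vertical axis) of the 198 miRNAs detected on all of them, in order of brightness (horizontal axis), with the arms of miR-22 in colour and their SD over the 6 arrays as bars. MiR-22-3p is 6th, with a mean of 3.97, and miR-22-5p is 136th, with a mean of -3.65.

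Over the mean of all 6 arrays, miR-22-3p was 6th of the 198 miRNAs. Let-7c-5p stood directly above it, with a mean scaled log2 signal of 4.23, and was brighter on 4 of the 6 arrays. Let-7a-5p stood directly below it, with a mean of 3.72, and was brighter than miR-22-3p on 1 of the 6 arrays. Neither neighbour was thus on the same side of miR-22-3p on every array. MiR-22-5p was 136th, with miR-1188-3p directly above it at -3.59 and miR-338-3p directly below it at -3.68. Each of these was brighter than miR-22-5p on 4 of the 6 arrays, so that the order at this level is not resolved.

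After scaling, miR-22-3p was dimmer on average in the model group, and the difference did not pass the test. Its scaled log2 signal was 4.18, 4.16 and 3.96 in the control rats and 3.80, 3.70 and 3.99 in the model rats. Model array 3 was brighter than control array 3, so that the groups overlapped. The means were 4.10 ± 0.12 (SD, n = 3) and 3.83 ± 0.15 (SD, n = 3). The log2 fold change, model over control, was -0.27 with a standard error of 0.11, and the adjusted p of limma was 0.133. The 95% interval of the fold ran from 0.687 to 1.00 around 0.83, so that both a lower level and no change lie within it. The exact permutation test, two-sided, gave a p of 0.20, and with 3 arrays against 3 it cannot give less than 0.10.

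MiR-22-5p had a difference of the same sign and similar size. Its scaled log2 signal was -3.54, -3.32 and -3.58 in the control rats and -3.79, -4.05 and -3.61 in the model rats. All model arrays lay below all control arrays, the closest being model array 3 and control array 3. The means were -3.48 ± 0.14 (SD, n = 3) and -3.82 ± 0.22 (SD, n = 3), and the log2 fold change was -0.34 with a standard error of 0.14. The adjusted p of limma was 0.133, the 95% interval of the fold ran from 0.626 to 1.00 around 0.792, and the exact permutation p was 0.10, the smallest it can give.

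Groups that did not overlap were frequent on these arrays. For the test, a miRNA had to be detected on all 3 arrays of either group. Of the 214 that were, 47.2% had groups that did not overlap and 30.8% had all model arrays below all control arrays. After adjustment, 49 of them passed limma at a threshold of 0.05, or 22.9%, with 22 higher and 27 lower in the model group. The arms of miR-22 were in places 83 and 84 in the order of the p values, with unadjusted limma p values of 0.0516 and 0.0522. The log2 fold change of 65 miRNAs was more negative than that of miR-22-3p, and that of 61 was more negative than that of miR-22-5p. A p that misses the threshold does not show that the level was the same in both groups.

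**Figure D2:**
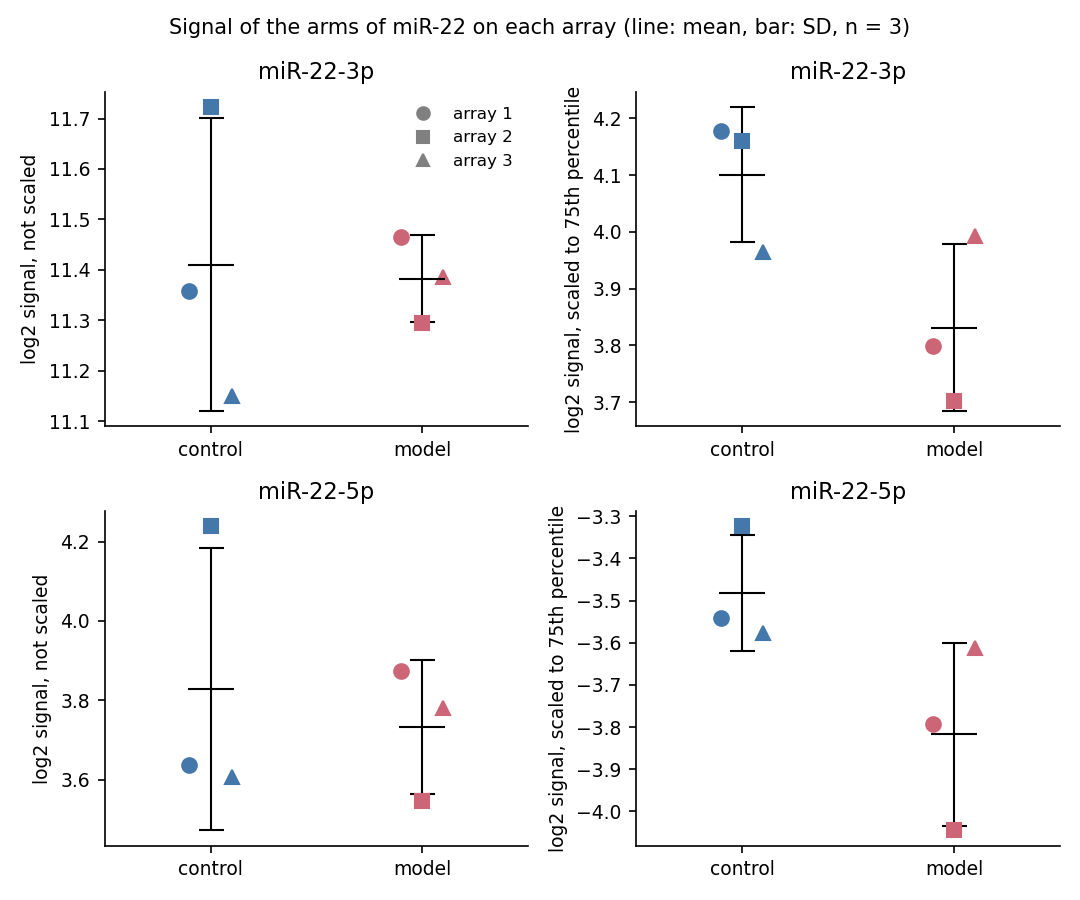
Log2 signal (vertical axes) of miR-22-3p (top) and miR-22-5p (bottom) on each array, before scaling (left) and after division by the 75th percentile (right). Each symbol is 1 array and its shape the replicate number. Lines are means and bars are SD, n = 3. Before scaling the model arrays lie within the range of the control arrays for miR-22-3p, and after scaling the model mean of each arm lies below its control mean.

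The size of the difference rested on the scaling. Without any scaling, the log2 signal of miR-22-3p differed by -0.028 between the groups (exact permutation p = 0.90) and that of miR-22-5p by -0.094 (exact permutation p = 0.80), and the groups overlapped for both arms. After scaling, the 198 miRNAs had a median log2 fold change of -0.15. Relative to that median, miR-22-3p differed by -0.12 and miR-22-5p by -0.19. With the row of the slide in the fit, where the comparison rests on model array 1 against the control arrays beside it, the log2 fold changes were -0.30 and -0.31. As a share of the summed signal of all detected miRNAs, which uses no percentile, miR-22-3p made up 4.41%, 3.99% and 3.93% in the control rats and 3.94%, 3.70% and 4.17% in the model rats. Its mean share was 4.11% ± 0.26 and 3.93% ± 0.24 (SD, n = 3 each), a difference of -0.18 percentage points (exact permutation p = 0.50). That difference was -0.031 without control array 1, -0.060 without model array 2, -0.30 without model array 3 and -0.95 with the authors' normalized values. The share of miR-22-5p was 0.0209%, 0.0223% and 0.0211% against 0.0204%, 0.0172% and 0.0214%, with groups that overlapped (exact permutation p = 0.30).

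In bulk myocardium, fewer cells that make a miRNA and less of it in each cell cannot be told apart. This applies to every difference described here.

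**Figure D3:**
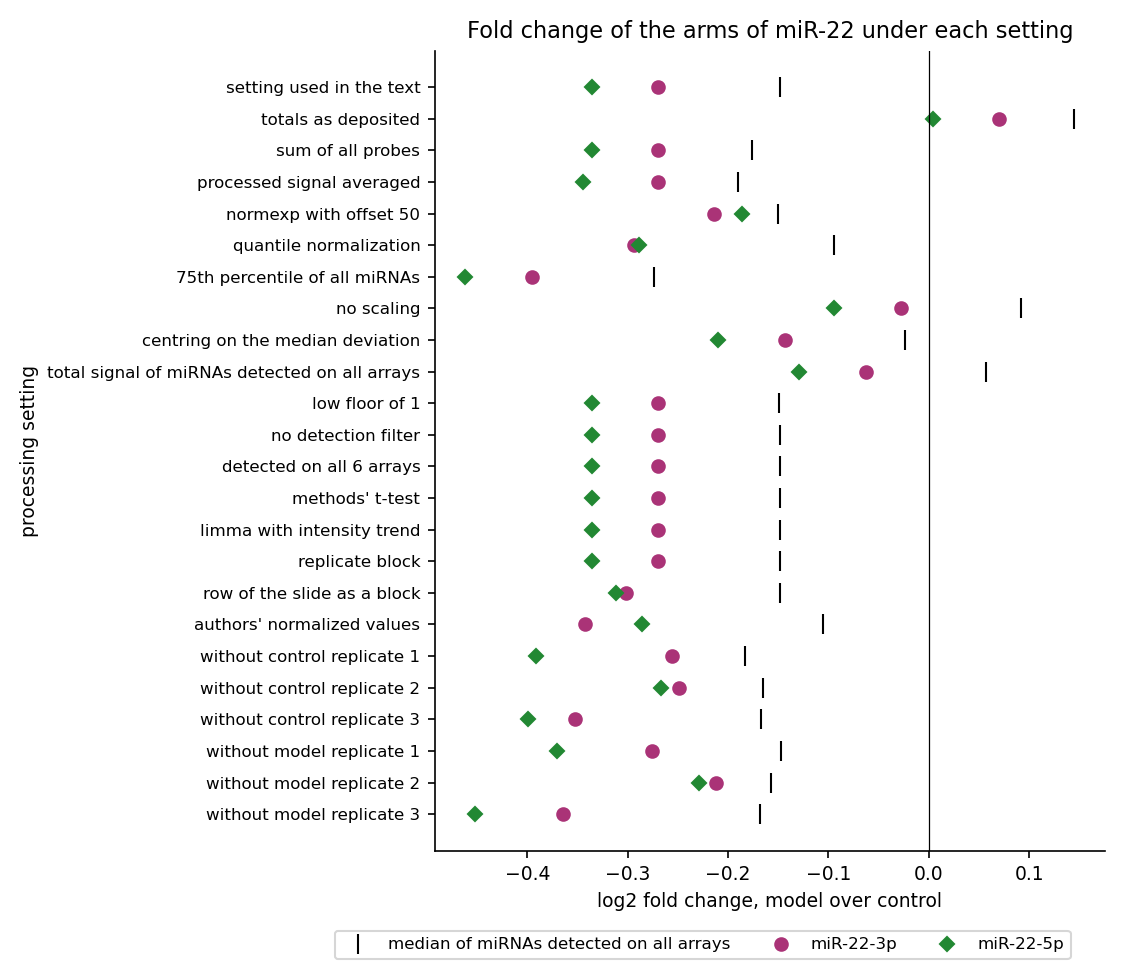
Log2 fold change, model over control (horizontal axis), of miR-22-3p (circles) and miR-22-5p (diamonds) under each way of processing the arrays (vertical axis), with a tick at the median of the miRNAs that all arrays of the setting detected. Both arms lie at or below the tick in every setting, and both lie above 0 only with the total signals as deposited, at 0.070 and 0.0039.

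The probes of the 3p arm gave like answers. MiR-22-3p has the probes A_26_P00001212 and A_26_P00001213, with 8 spots each, and miR-22-5p has the probe A_26_P00002016 with 16 spots. The files name no probe sequences. The dimmer 3p probe, A_26_P00001212, had a signal of 423, 554 and 369 in the control rats and 454, 388 and 434 in the model rats. The brighter one, A_26_P00001213, had 2202, 2825 and 1902 in the control rats and 2375, 2123 and 2242 in the model rats. Both probes put the 6 arrays in the same order, from control array 2, the brightest, to control array 3, the dimmest. After scaling, the dimmer probe differed by -0.30 and the brighter by -0.26 between the groups on the log2 scale (exact permutation p = 0.20 for each). The ratio of the brighter to the dimmer probe was 5.21, 5.10 and 5.16 in the control rats and 5.23, 5.47 and 5.16 in the model rats.

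The error of the spots differed between the arms. The coefficient of variation over the repeated spots of a probe was 1.30% to 5.38% for the 3p probes, with a median of 3.54%, and 8.40% to 20.1% for the 5p probe, with a median of 13.0%. Over the 3 rats of a group, the scaled signal of miR-22-3p had a coefficient of variation of 8.04% for control and 10.4% for model. For miR-22-5p it was 9.74% and 14.8%. Before scaling, the spread between rats was 20.5% for control and 5.95% for model for miR-22-3p, and 26.1% and 11.4% for miR-22-5p, so that the group with the larger spread depended on the scaling. Of the 96 spots of miR-22-5p over the 6 arrays, 2 were not well above background, both on control array 1.

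The ratio of the arms was compared because a ratio within an array does not change when the array is scaled. The signal of miR-22-3p was 211, 179 and 186 times that of miR-22-5p in the control rats and 193, 215 and 195 times in the model rats. The highest and the lowest ratio of the control group were nearly as far apart as those of all 6 arrays, and the groups overlapped. The mean log2 ratio was 7.58 ± 0.12 for control and 7.65 ± 0.086 for model (SD, n = 3 each). The difference was 0.066 with a standard error of 0.093 and a 95% interval of -0.16 to 0.29, and the adjusted p of limma over 24 precursors was 0.668 (exact permutation p = 0.50). Both no change and a change of the arm ratio within this interval are compatible with these values, so that equal ratios are not shown.

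Both arms were detected on all 6 arrays for 24 precursors. Among these, miR-22 had the 2nd highest signal of the 3p arm over the 5p arm, below miR-1, the muscle miRNA, whose mean log2 ratio was 9.34. Its change between the groups was in place 20 of the 24 by size. Of the 24 ratios, 2 passed the test, or 8.33%, and 20.8% had groups that did not overlap. The ratios that passed were those of miR-199a, a miRNA of fibroblasts, which differed by -0.56 (adjusted p of limma 0.0046), and of let-7b, which differed by -0.65 (adjusted p of limma 0.0477), both named here with their values already seen. Across settings the number that passed ran from 0, with normexp, quantile normalization and the authors' values, to 7 without a detection filter, and it was 1 without control array 1, model array 1 or model array 2.

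**Figure D4:**
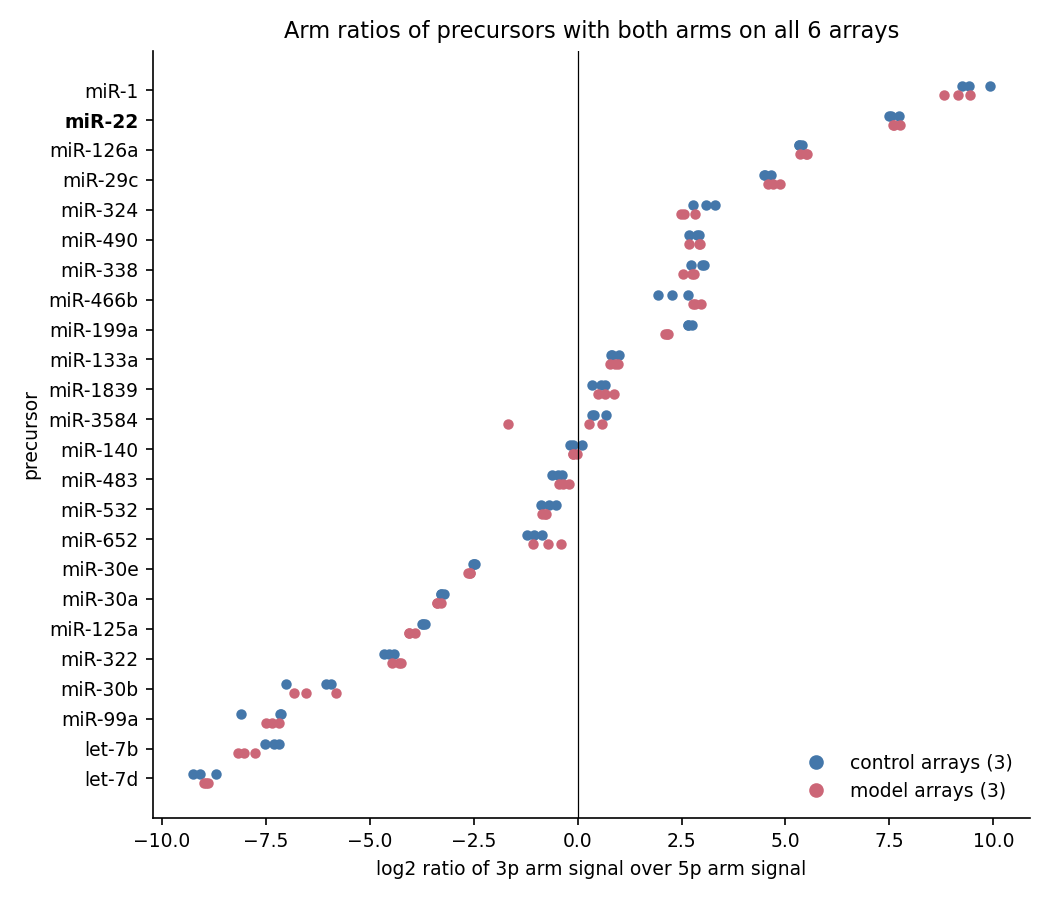
Log2 ratio of the 3p arm signal over the 5p arm signal (horizontal axis) on each of the 3 control and 3 model arrays, for the 24 precursors with both arms detected on all 6 arrays (vertical axis). MiR-22 is second from the top, and its points of both groups lie together between 7.48 and 7.75.

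The miRNAs with the array-to-array profile most like each arm were named as a description. The measure of likeness was the root mean square difference between scaled log2 signals over the 6 arrays, after each miRNA was centred on its own mean, and 197 miRNAs were set against each arm. For miR-22-3p these were miR-210-3p, the hypoxia-induced miRNA, at 0.0366, miR-186-5p at 0.0637 and miR-328a-3p at 0.0768, against a median of 0.230 over all 197. For miR-22-5p they were miR-29c-3p, a repressor of collagen genes, at 0.0592, miR-186-5p at 0.0607 and miR-1949 at 0.0627, against a median of 0.263. MiR-186-5p was near to both arms. The arms themselves were 0.0929 apart, which made miR-22-5p the 10th nearest to miR-22-3p and miR-22-3p the 9th nearest to miR-22-5p. With 6 arrays many miRNAs share such a profile, and the names depended on the processing. Of the 3 nearest to miR-22-3p, 0 remained with normexp, 1 with quantile normalization and 0 with the authors' values. Of those nearest to miR-22-5p, 1 remained with normexp, 1 with the processed signal averaged, 0 with quantile normalization and 0 with the authors' values.

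The other miRNAs linked to hypertrophic growth and remodelling of the heart were set beside miR-22. The list holds 23 miRNAs, of which 22 are on the array under these names and 20 were tested; miR-208b-3p and miR-9a-5p were not detected on any array. In the model group 7 were higher, against 10.3% of all miRNAs tested, 3 were lower, against 12.6%, and 10 did not pass. The median log2 fold change of the list was 0.15, and that of all miRNAs tested was -0.14. Of the higher ones, the study named all but miR-27b-3p as raised on these samples. The list was also chosen with earlier results of these data known. The direction of its members, their counts and the list median are thus not independent evidence.

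The 7 higher members of the list were as follows. MiR-199a-5p, made in fibroblasts, rose by a log2 fold change of 1.95, and miR-214-3p, from the same transcript, by 1.84, and both passed the test in every setting run. MiR-21-5p, which promotes fibroblast survival, rose by 1.101 and did not pass without a detection filter or with slide row blocked. MiR-221-3p, a vascular miRNA, rose by 1.07, with 0.085 and an adjusted p of limma of 0.442 under normexp background correction. It did not pass in 2 of the 23 settings, normexp among them. MiR-155-5p, a miRNA of activated leukocytes, also rose by 1.07. However, it stood at -1.92 with the total signals as deposited and at -0.031 with normexp. In 4 of the other settings, the fit without control array 1 among them, it did not pass. MiR-27b-3p rose by 0.37 (adjusted p of limma 0.035), a call lost in 12 of the 23 settings, each of the fits without 1 array among them, with an adjusted p of up to 0.187. MiR-132-3p, which acts on Foxo3 in hypertrophy, was not detected in the control group. Its model mean was 1.80 times a substitute for the control level (adjusted p of limma 0.00243). This substitute takes the larger of 2 signals on each control array. These are the sum of all miR-132-3p probes and the lowest detected signal. Neither is 3 times the error of its own probes, so that the substitute is not an upper limit on the control level. The adjusted p belongs to another comparison, in which every control array was set to the floor and had no spread. Under normexp background correction miR-132-3p stood at -0.085, and in 1 other setting it did not pass.

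The 3 lower members of the list are muscle miRNAs. MiR-1-3p, which restrains hypertrophic growth, fell by 0.76 on the log2 scale (adjusted p of limma 0.020), miR-133b-3p by 0.72 (0.027) and miR-133a-3p by 0.68 (0.030). These calls were also not firm: 0 of the list were lower without any one of control arrays 1, 2 and 3 or model array 1, 2 without model array 2 and 3 without model array 3. With quantile normalization miR-1-3p and miR-133b-3p had no difference between the groups by construction. Each held the same place in brightness on every array, and that method gives equal places equal values. All other settings kept miR-1-3p, miR-133b-3p and miR-133a-3p below 0. Of the 10 that did not pass, the log2 fold changes ran from -0.87 for miR-208a-3p (adjusted p of limma 0.099), detected on 5 arrays, to 0.51 for miR-195-5p (adjusted p of limma 0.063). MiR-499-5p, made from a myosin gene, was at -0.69 (adjusted p of limma 0.093). The log2 fold changes of the miR-22 arms, -0.27 and -0.34, lay within this range.

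Marker miRNAs of cell types moved between the groups, and the counts of calls that follow stand beside 10.3% higher and 12.6% lower among all miRNAs tested. The summed scaled signal of the 6 cardiomyocyte miRNAs was 114 to 138 on the control arrays and 60.9 to 85.1 on the model arrays, with miR-208b-3p at 0, and 3 of the 5 tested were lower and 0 higher. That of the 4 fibroblast miRNAs was 3.85 to 4.74 and 10.2 to 14.4, with all 4 higher. The study had named all 4 as raised on these same samples, so that this is not independent evidence. The endothelial pair summed to 8.16 to 9.17 and 5.98 to 6.66, with 2 of 2 lower, and the red cell miRNAs to 1.79 to 2.10 and 1.13 to 1.43, with 1 of 2 lower. The leukocyte miRNAs summed to 2.85 to 3.47 and 2.03 to 2.51, with 1 of 5 higher and 1 lower, and the smooth muscle miRNAs to 5.04 to 6.72 and 4.74 to 5.46, with 0 called. Before scaling, the sums of the cardiomyocyte, fibroblast and red cell miRNAs did not overlap between the groups, and those of the endothelial, leukocyte and smooth muscle miRNAs did. The share of all miRNAs without overlap was taken only after scaling, where it was 47.2%. Without scaling 0 miRNAs were called lower. The cardiomyocyte sum is mostly miR-133b-3p and miR-1-3p, at 9222 and 6929 of 16568 on control array 1. The part of these shifts in the signal of miR-22 was not tested.

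MiR-22-3p was therefore also set against single marker miRNAs on the same array, a comparison added after the values were seen. Its log2 ratio to miR-1-3p differed by 0.49 between model and control, that to miR-133a-3p by 0.41 and that to miR-133b-3p by 0.45, with the model arrays above all control arrays (exact permutation p = 0.10 for each, 0.114 after Benjamini-Hochberg adjustment over the 8 ratios). The ratio to miR-499-5p differed by 0.42, with groups that overlapped (exact permutation p = 0.20). In these ratios miR-22-3p was higher in the model group relative to the muscle miRNAs. MiR-1-3p, miR-133a-3p and miR-133b-3p had been called lower on these same arrays, so that the ratios to them are not independent evidence. The ratio to miR-21-5p differed by -1.37, that to miR-199a-5p by -2.22, that to miR-199a-3p by -1.67 and that to miR-214-3p by -2.11, with the model arrays below all control arrays (exact permutation p = 0.10 for each, 0.114 adjusted). The difference of miR-22-3p thus lay between those of the muscle and the fibroblast miRNAs named. So did the median of all miRNAs tested, -0.14, so that this position is not particular to miR-22-3p. The share of all miRNAs whose ratios to these did not overlap between the groups was not counted. The study had named these fibroblast miRNAs as raised on these samples, so that the ratios to them are not independent evidence. None of the 8 ratios could pass a threshold of 0.05 with 3 arrays against 3. With the authors' normalized values the differences in the ratios to miR-1-3p and miR-133b-3p had the opposite sign, at -0.26 and -0.23. In those values miR-1-3p and miR-133b-3p themselves differed by only -0.085 and -0.11, and miR-22-3p by -0.34. The authors' columns draw largely on the same values: 94.3% of those above 0 in the other columns were also in the first. The part of this in the change of sign was not tested.

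**Figure D5:**
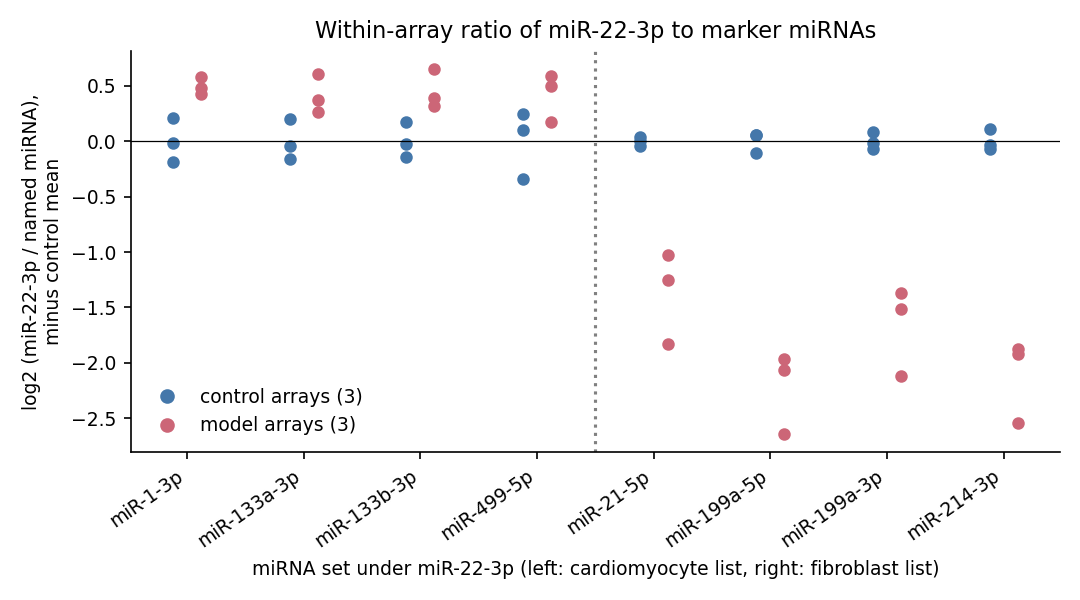
Log2 ratio of the signal of miR-22-3p to that of 4 cardiomyocyte miRNAs (left of the dotted line) and 4 fibroblast miRNAs (right) on each array, with the control mean set to 0 (vertical axis). The model arrays lie above all control arrays for miR-1-3p, miR-133a-3p and miR-133b-3p, overlap with them for miR-499-5p and lie below all of them for the fibroblast miRNAs.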

How the data were processed

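Total RNA of rat myocardium was hybridised to 6 Agilent Rat miRNA arrays with 1 dye, 3 control and 3 model, grouped by the labels. Nothing says that a replicate number is shared between groups. The authors deposited Agilent Feature Extraction 10.7.1.1 output per array, with intensity values after background subtraction and before any scaling across arrays, and normalized log2 values whose method is not given in the sources used here. The labelling protocol in the labels names a kit for cRNA, and how far it fits miRNAs is not known. No genome build is given in the sources used here.

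The total signal column can hold another miRNA's total as well, so the signal of a miRNA was rebuilt as the sum of its probes over 3 times their error. For the miR-22 arms the column equalled this sum within a relative tolerance of 0.0001, and only the scaling differed. Each array was scaled to its 75th percentile over the 198 miRNAs that all 6 arrays detected, floored at a log2 of -6.50, the highest of the lowest scaled detected signals, and taken to log2. The 214 miRNAs that all arrays of either group detected, as in the study's methods, were fitted without covariates by lmFit and eBayes of limma 3.58.1 (R 4.3.3) with Benjamini-Hochberg adjustment at 0.05. Arm ratios were fitted the same way over 24 precursors. Single values were compared with two-sided exact permutation tests of 3 arrays against 3. Other steps used Python 3.11.15, pandas 2.3.3, numpy 2.4.6, scipy 1.17.1, matplotlib 3.10.9 and RNAfold 2.7.2. The fits were run on simulated log2 values with known changes added. These values were drawn as already scaled, so that the scaling, floor and detection filter were not tested. The number of arrays limits the precision. The limma p-values set a group difference against the spread between arrays, each of a different rat, with that spread shared over miRNAs.

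The miRNAs named are the arms, the members of the hypertrophy-linked list, the 3 nearest profiles of each arm and its neighbours in brightness. The members, lists, tests and alternatives were chosen with earlier results of these data known. A mature sequence of the same name was found in RefSeq for 685 of the 758 miRNAs. Alternatives changed the signal, background correction, scaling, floor, filter, test, block and arrays used. A block for slide or scan could not be fitted, since all arrays share 1 slide and 1 scan time.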

Additional observations from a re-analysis of the deposited data

How the results depend on the processing

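Over the 23 alternative settings neither arm passed limma at an adjusted p of 0.05. MiR-22-3p ran from -0.40 to 0.070 in log2 fold change and was below 0 in 22 settings, with a lowest adjusted p of 0.055, and its unadjusted p was under 0.05 in 7. MiR-22-5p ran from -0.46 to 0.0039, was below 0 in 22 and had a lowest adjusted p of 0.064, with an unadjusted p under 0.05 in 5. The values above 0 came with the totals as deposited, where the scale differs by construction. Leaving out each array gave -0.36 to -0.21 for miR-22-3p, -0.45 to -0.23 for miR-22-5p and 0.017 to 0.14 for the log2 arm ratio, which was -0.028 with normexp, -0.0042 with quantile normalization and -0.057 with the authors' values. Correlations of deviations between arrays of the same replicate number were -0.26, 0.032 and 0.24. Those between unlike numbers ran from -0.30 to 0.22, so that these values cannot decide whether the samples were paired. With a replicate block both arms had an adjusted p of 0.267 and the arm ratio 0.769, and 16 miRNAs were called, 12 higher and 4 lower.

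Counts of called miRNAs, 49 in all with 22 higher and 27 lower, depended more on the settings. The total was 19 without scaling, 9 without a detection filter, 26 with the methods' t-test, 29 with slide row blocked and 14 to 39 when an array was left out (14 without control array 1, 26 without control array 2 and 27 without control array 3). The calls split into 35 higher and 1 lower with the totals as deposited, 34 and 11 with total signal scaling, 19 and 47 when the 75th percentile was taken over all miRNAs, 19 and 0 without scaling, 30 and 16 with median centring, 23 and 16 with quantile normalization, 23 and 14 with the authors' values, and 6 and 3 without a filter. With slide row blocked 11 were higher, and with the t-test 11 were lower. Leaving out an array gave 12 to 22 higher and 2 to 21 lower. In the hypertrophy-linked list, 11 were higher with total signal scaling, 3 without a filter, 4 with the row block and 5 to 6 without an array. Of the same list, 6 were lower with normexp and also when all miRNAs set the percentile, 0 to 3 without an array, and 0 with the totals as deposited, no scaling, no filter, the t-test, the replicate block and the row block. MiR-132-3p stood at -0.085 with normexp, and miR-155-5p at -1.92 with the totals as deposited and -0.031 with normexp. For the log2 ratios of miR-22-3p to miR-1-3p and miR-133b-3p, model minus control was -0.26 and -0.23 with the authors' values. The cause of these differences was not tested.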
